A study of Homo sapiens with 4 samples.

Results

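The neuroendocrine secretory genes CHGA, CHGB, SYP, ENO2, SCG2, SCG5, INSM1, NTS and DDC were followed through single-cell RNA sequencing of LNCaP, a human prostate cancer line, and of resistant lines derived from it. They were chosen by symbol, and all 9 were among the 33538 genes listed in each matrix. One library had been made per group. LNCaP was the enzalutamide-sensitive parental line, given 0.1% of the solvent DMSO for 48 h, and LNCaP-ENZ48 was the same line given 10 µM of the androgen receptor inhibitor enzalutamide for 48 h. RES-A and RES-B were enzalutamide-resistant LNCaP derivatives kept in 10 µM enzalutamide, RES-A derived by passaging in rising enzalutamide and RES-B by continuous exposure to RD-162, another inhibitor of the same receptor. All 4 libraries came from living sorted cells, each line stood for 1 history of selection, and cells of 1 library are not replicates. No test was therefore run. All intervals are 95% intervals of the counting error only, and a difference between libraries cannot be told apart from a difference between sequencing runs or cultures.

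Neuroendocrine cells store peptide hormones and amines in dense-core granules and release them on stimulation. The granins CHGA, CHGB and SCG2 are packed with the cargo inside these granules, SCG5 is the chaperone of the prohormone convertase PCSK2, and SYP is a membrane protein of small synaptic-like vesicles. ENO2 is the neuronal form of the glycolytic enzyme enolase, NTS is the precursor of the peptide neurotensin, and INSM1 is a zinc-finger transcription factor of neuroendocrine differentiation. DDC, aromatic L-amino acid decarboxylase, makes dopamine from L-DOPA and serotonin from 5-hydroxytryptophan. In prostate cancer these genes serve as markers of neuroendocrine disease, which can emerge under therapy directed at the androgen receptor, while DDC is also made by many cells outside the nervous system.

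The matrices hold UMI counts, in which reads of 1 captured RNA molecule carry the same unique molecular identifier and count once. The study's limits kept 1782 LNCaP cells, 4315 treated LNCaP-ENZ48 cells, 4569 RES-A cells and 4061 RES-B cells, with 50208831 to 60838227 UMIs per library. The median was 27079.5 UMIs per cell in LNCaP and 12138 to 13676 in the others, so shares of cells were compared after every cell had been thinned at random to 5000 UMIs. Levels are given as CPM, the UMIs of a gene per 1000000 UMIs of the library. The 10 prostate luminal markers, KRT8, KRT18 and EPCAM among them, had UMIs in every library, with a summed level of 1580 to 2591 CPM, and 8 of 10 reached 10 CPM in RES-A against 10 of 10 elsewhere. The 4 basal, 5 fibroblast and 5 immune markers summed to at most 0.299, 3.70 and 1.20 CPM. Of these, KRT5, TP63, COL1A2, PTPRC and CD3E were at 0 throughout, but others of the same lists were not. COL1A1 was at 3.19 CPM (160 UMIs) in LNCaP and 2.98 CPM (181 UMIs) in LNCaP-ENZ48. KRT14 had 15 UMIs in LNCaP and 0 in LNCaP-ENZ48, and CD68 had 16 and 27.

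DDC, ENO2 and SYP carried nearly all the signal of the 9 genes, and CHGA, the member most used as a serum and tissue marker, was not found. The windows around their annotated starts are printed because these 4 genes separate into those with and without RNA in the line. The sequences are RefSeq's for GRCh38.p14, 250 bases before to 50 after a start, 5′ to 3′ on the gene's strand. An entry existed for 6 of the 9 members, in 7 windows, but not for CHGB, SCG2 and INSM1. Capitals mark GGGCGG (a GC box), TGACG (a half-site of the cyclic AMP response element) and their reverse complements.
DDC, distal start (chr7:50565356-50565655, minus strand): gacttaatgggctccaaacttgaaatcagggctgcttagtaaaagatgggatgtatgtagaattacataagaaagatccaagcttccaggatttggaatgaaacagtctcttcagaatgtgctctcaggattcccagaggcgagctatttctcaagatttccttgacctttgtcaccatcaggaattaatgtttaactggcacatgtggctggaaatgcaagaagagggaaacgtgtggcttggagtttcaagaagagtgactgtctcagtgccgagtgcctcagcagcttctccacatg
DDC, proximal start (chr7:50561022-50561321, minus strand): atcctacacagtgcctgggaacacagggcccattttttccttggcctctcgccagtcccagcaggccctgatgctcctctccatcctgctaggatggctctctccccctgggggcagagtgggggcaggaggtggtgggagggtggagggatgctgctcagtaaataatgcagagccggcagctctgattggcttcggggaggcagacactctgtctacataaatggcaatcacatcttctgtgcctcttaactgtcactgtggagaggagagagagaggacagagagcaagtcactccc
ENO2 (chr12:6914330-6914629, plus strand): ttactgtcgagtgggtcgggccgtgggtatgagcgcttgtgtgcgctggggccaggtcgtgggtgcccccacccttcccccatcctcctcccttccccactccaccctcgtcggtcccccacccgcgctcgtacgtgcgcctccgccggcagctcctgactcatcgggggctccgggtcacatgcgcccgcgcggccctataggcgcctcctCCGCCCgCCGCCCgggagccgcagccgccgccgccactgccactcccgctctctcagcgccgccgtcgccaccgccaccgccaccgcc
SYP (chrX:49200144-49200443, minus strand): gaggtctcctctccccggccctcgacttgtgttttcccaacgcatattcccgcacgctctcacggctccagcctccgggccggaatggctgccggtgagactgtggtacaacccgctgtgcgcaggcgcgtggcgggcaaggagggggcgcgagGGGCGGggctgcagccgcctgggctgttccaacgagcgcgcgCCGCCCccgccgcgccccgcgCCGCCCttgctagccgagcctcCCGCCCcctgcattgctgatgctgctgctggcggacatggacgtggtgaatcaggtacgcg
CHGA (chr14:92922900-92923199, plus strand): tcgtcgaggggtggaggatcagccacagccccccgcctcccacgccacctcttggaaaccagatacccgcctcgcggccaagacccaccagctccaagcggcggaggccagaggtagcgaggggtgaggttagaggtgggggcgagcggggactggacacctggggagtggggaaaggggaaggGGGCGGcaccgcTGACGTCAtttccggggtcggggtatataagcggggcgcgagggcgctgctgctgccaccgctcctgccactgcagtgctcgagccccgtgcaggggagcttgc
Both DDC windows held 3 CG dinucleotides and neither motif, whereas the windows of CHGA, SYP and ENO2 held 24, 35 and 38 CG dinucleotides, against a median of 14 over 35116 windows. DDC is known to be transcribed from alternative first exons, and counts taken at the 3′ end do not tell its starts apart. The GC box occurred once in CHGA, 2 times in ENO2 and 4 times in SYP, and 45.0% of all windows held it. CHGA alone among the printed windows held the palindrome TGACGTCA, in which TGACG is read on both strands. That palindrome was present in 1.85% of all windows and TGACG in 24.6%. The steroid response element half-site AGAACA (14.8% of all windows) and the forkhead motif TGTTTAC (3.42%) were in none of the 7 windows.

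Granins, the chaperone, the peptide and the transcription factor were at or near 0 in all 4 libraries. CHGA (chr14:92923150-92935285) had 0 UMIs in each, in kept cells and in the barcodes left out alike. By the binomial interval, a count of 0 allows up to 0.207% of the LNCaP cells to carry a CHGA UMI at the depth sequenced. In the other libraries, LNCaP-ENZ48 first and RES-B last, it allows 0.0855%, 0.0807% and 0.0908% of the cells. CHGB (chr20:5911510-5925353) had 2 UMIs in RES-A and 0 in the others. INSM1 (chr20:20368104-20370949) had 1 UMI in RES-B and 0 in the others. SCG2 (chr2:223596940-223602361) had 4 UMIs in RES-B, 2 in RES-A, 1 in LNCaP and 0 in LNCaP-ENZ48, each in a different cell. NTS (chr12:85874295-85882992) had 2 UMIs in both LNCaP libraries and 1 in both resistant lines. These 5 genes cannot be ordered between libraries at such counts.

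SCG5 (chr15:32641676-32697098) was low but present in every library. It had 18 UMIs in RES-B (0.342 CPM, interval 0.203 to 0.541) and 11 in LNCaP (0.219 CPM, 0.109 to 0.392). RES-A had 5 (0.0872 CPM, 0.0283 to 0.204) and LNCaP-ENZ48 had 2 (0.0329 CPM, 0.00398 to 0.119). RES-B and LNCaP overlapped, and the RES-B interval lay above that of LNCaP-ENZ48. The 18 UMIs of RES-B came from 17 cells, with at most 2 in a cell. PCSK2, the convertase that SCG5 keeps from aggregating, had 6 UMIs in RES-B and 0 in the other libraries.

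SYP (chrX:49187815-49200218, minus strand) was even across the series. Its level was 4.34 CPM in LNCaP (218 UMIs, 3.78 to 4.96), 3.58 after 48 h of enzalutamide (218 UMIs, 3.12 to 4.09), 3.77 for RES-A (216 UMIs, 3.28 to 4.30) and 3.37 for RES-B (177 UMIs, 2.89 to 3.90). All 4 intervals overlapped. The log2 ratio to LNCaP was -0.28 after 48 h of enzalutamide, -0.20 for RES-A and -0.37 for RES-B, and of these 3 the interval of RES-B (-0.66 to -0.07) did not include 0. In thinned cells 2.02%, 1.88%, 1.84% and 1.80% of cells had a SYP UMI, in the order of the levels just given, and the variance of the UMIs per cell was 0.980 to 1.01 times their mean, the value of an even (Poisson) spread over cells. PRICKLE3, the nearest protein-coding gene on the lower side, had log2 ratios of -0.29, -0.28 and -0.13, and CACNA1F on the higher side was at 0.

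ENO2 (chr12:6913745-6923698, plus strand) was highest in LNCaP-ENZ48 and RES-A and lowest in RES-B. The level was 14.7 CPM in LNCaP (737 UMIs, 13.6 to 15.8), 19.2 after 48 h of enzalutamide (1166 UMIs, 18.1 to 20.3), 18.6 for RES-A (1065 UMIs, 17.5 to 19.7) and 6.60 for RES-B (347 UMIs, 5.92 to 7.33). LNCaP-ENZ48 and RES-A did not differ beyond their intervals, while both lay above LNCaP and RES-B lay below it. The log2 ratio to LNCaP was 0.38 (0.25 to 0.52) after 48 h of enzalutamide, 0.34 (0.20 to 0.48) for RES-A and -1.15 (-1.34 to -0.97) for RES-B. Among cells called G1 alone, the RES-A ratio was 0.16 and its interval, -0.01 to 0.34, included 0. RES-B was 2.81-fold below RES-A. The share of thinned cells with an ENO2 UMI followed the same order, at 7.30%, 9.50%, 9.32% and 3.40%.

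The other enolases did not share this pattern. ENO1, the enolase of most tissues, was 453 CPM in LNCaP, 482 after 48 h of enzalutamide, 574 for RES-A and 843 for RES-B, where its log2 ratio to LNCaP was 0.90. ENO3, the muscle form, stayed between 5.78 and 6.29 CPM. Reads that fit several genes equally are dropped by Cell Ranger, so enolase stretches that are near-identical lose reads in every library. ENO2 overlaps the end of LRRC23 by 497 bases on its start side, away from the 3′ end at which reads fall, and LRRC23 had log2 ratios to LNCaP of -0.00057, 0.16 and 0.02. ATN1, 764 bases beyond the ENO2 end, had ratios of 0.06, -0.00057 and 0.45.

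DDC (chr7:50458436-50565405, minus strand) had the widest range of levels, in CPM, of the 9 genes. Its level was 23.9 CPM in LNCaP (1201 UMIs, 22.6 to 25.3), 68.7 after 48 h of enzalutamide (4179 UMIs, 66.6 to 70.8), 126 for RES-A (7220 UMIs, 123 to 129) and 17.1 for RES-B (899 UMIs, 16.0 to 18.3). No 2 of the 4 intervals overlapped. DDC was 2.87-fold higher in LNCaP-ENZ48 than in LNCaP (log2 1.52, 1.43 to 1.62) and 5.26-fold higher in RES-A (log2 2.40, 2.31 to 2.49). In RES-B it was 1.40-fold lower than in LNCaP (log2 -0.48, -0.61 to -0.36) and 7.36-fold lower than in RES-A. Both resistant lines were kept at the same enzalutamide concentration, and they lay on opposite sides of the parental line for DDC and for ENO2.

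**Figure D1:**
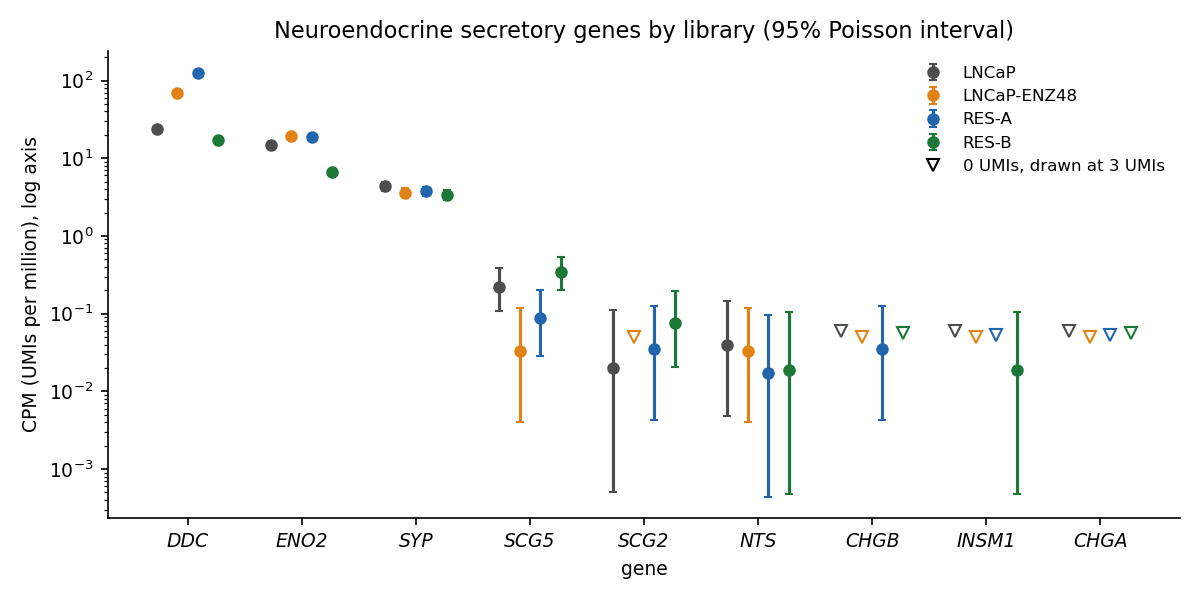
Level of each of the 9 genes (CPM, log axis) in each of the 4 libraries, with 95% Poisson intervals, and open triangles at the level of 3 UMIs where a library had 0. DDC runs from 17.1 to 126 CPM and ENO2 from 6.60 to 19.2, the 4 values of SYP lie together near 4 CPM, and the other 6 genes are below 1 CPM.

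Of the 9 members, 3 had the 100 UMIs over a pair of libraries required for a fold to be read. In LNCaP-ENZ48 against LNCaP, 1 of these 3 (DDC) was at least 2-fold higher, where 0.535% of 12528 genes were, and 0 were at least 2-fold lower, where 1.09% of genes were. In RES-A against LNCaP, 1 of 3 (DDC) was higher, with 8.53% of 12784 genes, and 0 were lower, with 6.7%. In RES-B against LNCaP, 0 were higher, with 8.06% of 12649 genes, and 1 of 3 (ENO2) was lower, with 5.22%. In RES-B against RES-A, 0 were higher, with 5.27% of 12843 genes, and 2 of 3 (DDC and ENO2) were lower, with 4.37%. These 3 genes are too few to set a share against these backgrounds. The median log2 ratio of the 3 was 0.38, 0.34, -0.48 and -1.49 in these comparisons, beside -0.08, 0.03, 0.10 and 0.08 over all genes.

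The DDC levels came with different spreads over single cells. After thinning, 8.36% of LNCaP cells had a DDC UMI (7.12% to 9.74%), as had 21.5% after 48 h of enzalutamide (20.3% to 22.7%), 43.1% for RES-A (41.7% to 44.5%) and 6.33% for RES-B (5.60% to 7.12%). Without thinning the shares were 22.3%, 36.6%, 69.4% and 13.9%. Had the same UMIs been spread evenly over cells, 10.3%, 29.98%, 46.3% and 7.65% of thinned cells would have held one. The gap was widest in LNCaP-ENZ48, where the variance of DDC UMIs per cell was 2.26 times the mean, against 1.48 in LNCaP, 1.42 in RES-B and 1.23 in RES-A. In thinned LNCaP-ENZ48 cells 34 of 4315 held at least 5 DDC UMIs, and in RES-A 11 of 4569 did, although the RES-A level was higher. Before thinning, the cell with the most DDC held 29 UMIs in LNCaP, 33 after 48 h of enzalutamide, 12 for RES-A and 7 for RES-B. At least 3 DDC UMIs were present in 8 thinned LNCaP cells (0.449%), against 0.0195% for an even spread, and in 12 RES-B cells (0.295%), against 0.0079%. The shares were 2.99% against 0.579% in LNCaP-ENZ48 and 3.96% against 2.53% in RES-A. As a multiple of the even spread, the excess was larger in LNCaP and RES-B than in LNCaP-ENZ48. DDC was thus concentrated in part of the cells with and without the 48 h of drug and in RES-B. In RES-A it was found in more cells and lay nearest to an even spread. Free RNA in the droplets can add single UMIs to any cell, and a library of 1 cell line holds no cell type lacking DDC against which to read this background.

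ENO2 was spread more evenly than DDC in every library. The variance was 0.988 to 1.10 times the mean, and the shares of cells with an ENO2 UMI, 3.40% to 9.50%, lay beside the 3.53% to 9.74% of an even spread. At least 2 ENO2 UMIs were present in 0.617% of LNCaP cells (0.309% to 1.10%), against 0.301% for an even spread, and at least 3 in 2 RES-B cells (0.0492%, 0.00596% to 0.178%), against 0.000754%. No thinned cell held 5 ENO2 UMIs.

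**Figure D2:**
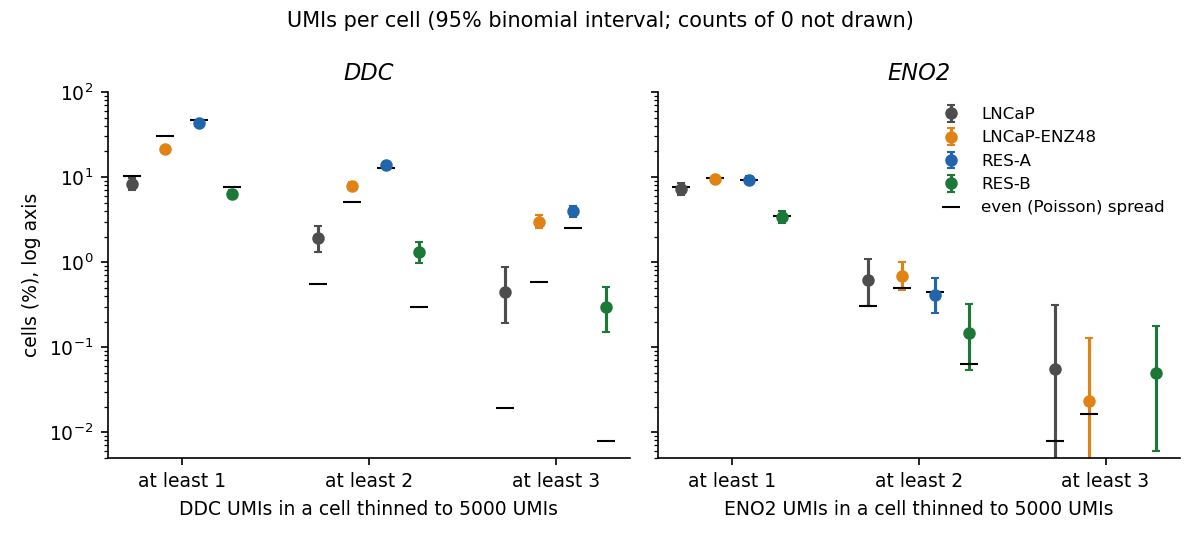
Share of thinned cells (%, log axis) with at least 1, 2 or 3 UMIs of DDC (left) and ENO2 (right) per library, with 95% binomial intervals, and black bars for an even (Poisson) spread of the same UMIs. DDC points for at least 3 UMIs lie above the bars in all 4 libraries, 2.99% against 0.579% in LNCaP-ENZ48 and 3.96% against 2.53% in RES-A, while the ENO2 shares with at least 1 UMI stay beside theirs.

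Within LNCaP and LNCaP-ENZ48, DDC was higher in cells with no UMI of KLK3, which encodes prostate-specific antigen and is a target of the androgen receptor. In LNCaP the thinned level of DDC was 11.7 CPM (8.78 to 15.3) in 924 cells with KLK3 and 32.4 CPM (27.2 to 38.3) in 858 cells without. In LNCaP-ENZ48 it was 44.2 CPM (37.9 to 51.2) in 801 cells with KLK3 and 77.5 CPM (73.4 to 81.7) in 3514 without. In RES-B the levels overlapped, at 13.7 CPM (8.89 to 20.3) in 364 cells with KLK3 and 16.1 CPM (14.3 to 18.1) in 3697 without. RES-A had 2 KLK3 UMIs in all and was not split.

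ENO2 went the other way in LNCaP-ENZ48, at 27.2 CPM (22.3 to 32.8) with KLK3 and 19.0 CPM (16.97 to 21.1) without, and its intervals overlapped in LNCaP and RES-B. SYP overlapped in all 3 libraries. The DDC level was higher in LNCaP-ENZ48 than in LNCaP among cells with KLK3 and among cells without it, with no overlap of the intervals.

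**Figure D3:**
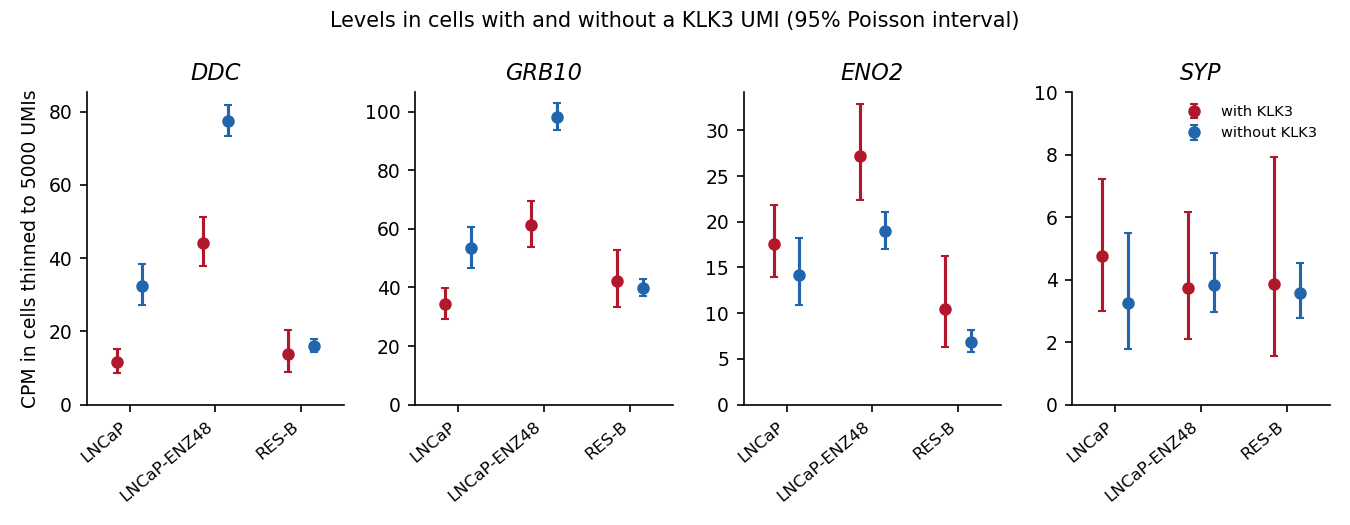
Thinned level (CPM, axes from 0 and different per panel) of DDC, GRB10, ENO2 and SYP in cells with and without a KLK3 UMI in LNCaP, LNCaP-ENZ48 and RES-B, with 95% Poisson intervals. DDC is 11.7 against 32.4 CPM in LNCaP and 44.2 against 77.5 CPM in LNCaP-ENZ48, and its 2 points overlap in RES-B.

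The members also differed by cell cycle phase and by the UMI count of the cells in some libraries. DDC in RES-B was 17.1 CPM (15.1 to 19.3) in cells called G1 and 8.09 CPM (5.38 to 11.7) in cells called G2M, whereas in RES-A it was 124 and 117 CPM with overlapping intervals. In RES-B cells above the library's median UMI count DDC was 21.3 CPM (18.5 to 24.3), and in those at or below it 10.5 CPM (8.63 to 12.7). In LNCaP-ENZ48 the order was the opposite, at 65.6 CPM (60.9 to 70.7) above the median and 76.9 CPM (71.8 to 82.3) at or below it, and in LNCaP and RES-A the intervals overlapped. ENO2 was lower in the cells above the median in 2 libraries. In RES-B it was 4.63 CPM (3.40 to 6.16) above the median and 9.74 CPM (7.92 to 11.9) at or below it. In LNCaP-ENZ48 it was 16.0 CPM (13.7 to 18.6) above and 24.9 CPM (22.0 to 28.1) at or below, and in LNCaP and RES-A its intervals overlapped. In LNCaP-ENZ48 ENO2 was 28.3 CPM (22.1 to 35.8) in G2M and 19.4 CPM (17.5 to 21.6) in G1. For RES-A it was 26.2 CPM (20.2 to 33.5) in cells called S and 17.6 CPM (15.6 to 19.8) in G1. The RES-A value in G2M, 22.6 CPM (18.3 to 27.5), overlapped both. SYP in LNCaP-ENZ48 was 7.98 CPM (4.88 to 12.3) in G2M and 3.15 CPM (2.39 to 4.08) in G1. The part of depth and phase in the differences between libraries was not tested beyond thinning and the fits to G1 cells.

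The members were rarely found together in a cell. A UMI of any member was present in 16.7% of thinned LNCaP cells, 30.5% after 48 h of enzalutamide, 49.6% for RES-A and 11.3% for RES-B. DDC was present in 149 of these 298 LNCaP cells, in 927 of 1316 LNCaP-ENZ48 cells, in 1969 of 2264 RES-A cells and in 257 of 460 RES-B cells. At least 2 members were present in 1.12% of LNCaP cells (0.687% to 1.73%), 2.39% after 48 h of enzalutamide (1.95% to 2.89%), 4.68% for RES-A (4.09% to 5.34%) and 0.468% for RES-B (0.282% to 0.730%). If each gene had been detected without regard to the others, these shares would have been 0.928%, 2.57%, 4.86% and 0.411%, inside the interval in each library. At most 3 of the 9 members were seen in any 1 cell, also without thinning.

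The pairs gave the same picture. ENO2 and DDC were found together in 14 LNCaP cells, 78 LNCaP-ENZ48 cells, 180 RES-A cells and 13 RES-B cells, which was 1.29, 0.886, 0.980 and 1.49 times the product of their shares, with intervals that included 1 in each. In RES-A, where the pair was counted best, the interval was 0.845 to 1.13. SYP and DDC were found together 0.332 to 1.15 times, and SYP and ENO2 0.638 to 1.52 times, as often as the product, on 1 to 34 cells, all with intervals that included 1. At this depth a cell that carried RNA of several members could not be told from chance overlap of single UMIs.

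In both LNCaP libraries the gene most like DDC from cell to cell was its neighbour on chromosome 7. GRB10 (chr7:50590063-50793462) encodes an adaptor protein that binds the insulin receptor. A gap of 24657 bases separates its lower coordinate from the upper one of DDC. Over thinned, log-normalised cells it had the highest Pearson correlation with DDC among 7279 genes in LNCaP (r = 0.18, 1782 cells) and among 7017 in LNCaP-ENZ48 (r = 0.21, 4315 cells). Next came RPL34 (r = 0.14) and PEG3 (r = 0.13) in LNCaP, and RPL34 (r = 0.16) and BTG1 (r = 0.15) in LNCaP-ENZ48. The lowest correlations were with RPS26 in LNCaP (r = -0.15) and RPL41 in LNCaP-ENZ48 (r = -0.13). GRB10 was the third of 7465 genes in RES-B (r = 0.11) and the 8th of 7222 in RES-A (r = 0.06). These are weak correlations over cells of 1 library, given without a test. In RES-A, where DDC was highest, the 3 leading genes were RDH11 (a retinol dehydrogenase), MARCKSL1 and CKB (brain-type creatine kinase), at r = 0.07 to 0.08.

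Counted as pairs, DDC and GRB10 were present together in 59 LNCaP cells, 2.28 times the product of their shares (1.74 to 2.92), and in 457 LNCaP-ENZ48 cells, 1.51 times the product (1.38 to 1.64). In RES-B they were together in 83 cells (1.83 times, 1.46 to 2.27) and in RES-A in 820 cells (1.07 times, 1.01 to 1.14). The RES-A interval included 1 in another random draw, at 2000 UMIs and in G1 cells alone. GRB10 with ENO2 or SYP gave 0.777 to 1.36 times the product, with intervals that included 1. The pair was chosen after these correlations were seen.

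**Figure D4:**
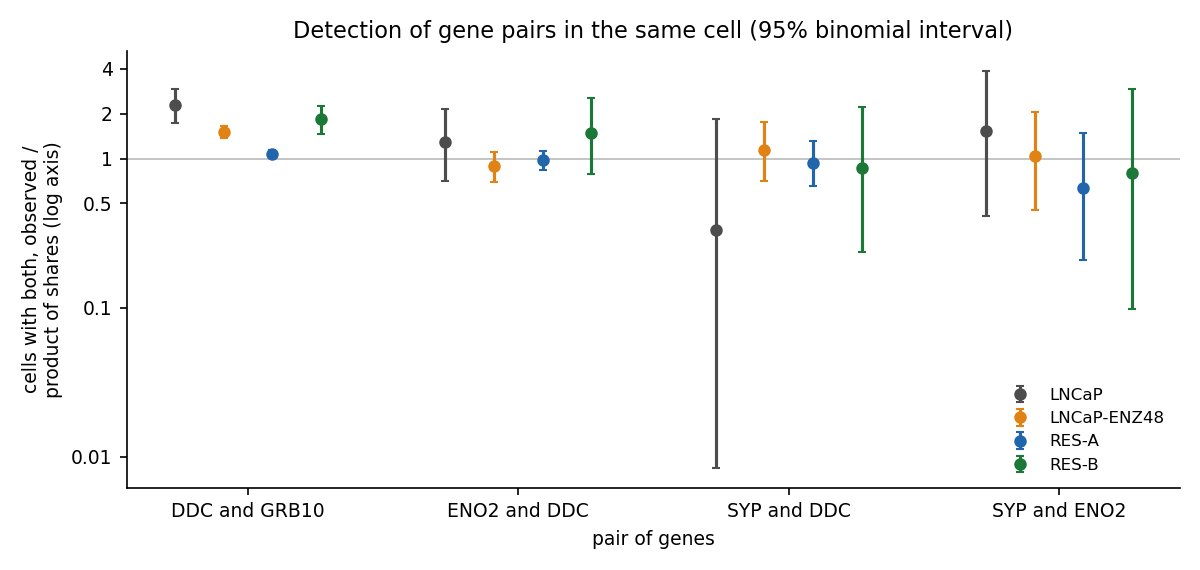
Cells with both genes of a pair, as a multiple of the product of their shares (log axis, 1 for no relation), per library with 95% binomial intervals. DDC with GRB10 lies between 1.07 and 2.28, farther from 1 in the other libraries than in RES-A, whose interval (1.01 to 1.14) reaches close to 1, while the intervals of the 3 pairs among DDC, ENO2 and SYP include 1.

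GRB10 also followed DDC between libraries. Its level was 42.3 CPM in LNCaP, 90.6 after 48 h of enzalutamide, 102 for RES-A and 39.0 for RES-B, the same order as DDC. The log2 ratios to LNCaP were 1.10 (1.03 to 1.17), 1.26 (1.19 to 1.34) and -0.12 (-0.21 to -0.03), each smaller in size than that of DDC, and the ratio of RES-B to RES-A was -1.38. Like DDC, GRB10 was higher in cells without a KLK3 UMI in LNCaP, at 53.4 against 34.2 CPM, and in LNCaP-ENZ48, at 98.2 against 61.2 CPM. In RES-B its intervals overlapped, at 39.8 CPM without and 42.3 CPM with KLK3. FIGNL1, 8045 bases below DDC, encodes an ATPase of DNA repair and had log2 ratios to LNCaP of -0.08 (-0.21 to 0.06) after 48 h of enzalutamide, 1.34 for RES-A and 0.33 for RES-B.

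The wider stretch of chromosome 7 did not move as a block. Over the 50 genes nearest to DDC with at least 100 UMIs, 25 on each side, the median log2 ratio against LNCaP was -0.08 after 48 h of enzalutamide, 0.06 for RES-A and 0.19 for RES-B. Of these 50, 1 gene (GRB10) was at least 2-fold higher in LNCaP-ENZ48, where 0.535% of all genes were. In RES-A 5 of the 50 were, with 8.53% of all genes. They were FIGNL1 (1.34), IGFBP3 (3.18), ADCY1 (1.24), GRB10 (1.26) and LANCL2 (1.13), all within 5 positions of DDC in this gene order. In the same stretch UPP1 (0.51), COBL (0.41), HUS1 (-0.06) and SEC61G (-0.07) were short of 2-fold, and EGFR was lower at -2.15. What lay behind this local grouping in RES-A was not tested. Around ENO2 the 50 nearest genes had medians of 0.02, 0.31 and 0.25, beside -1.15 for ENO2 itself in RES-B.

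**Figure D5:**
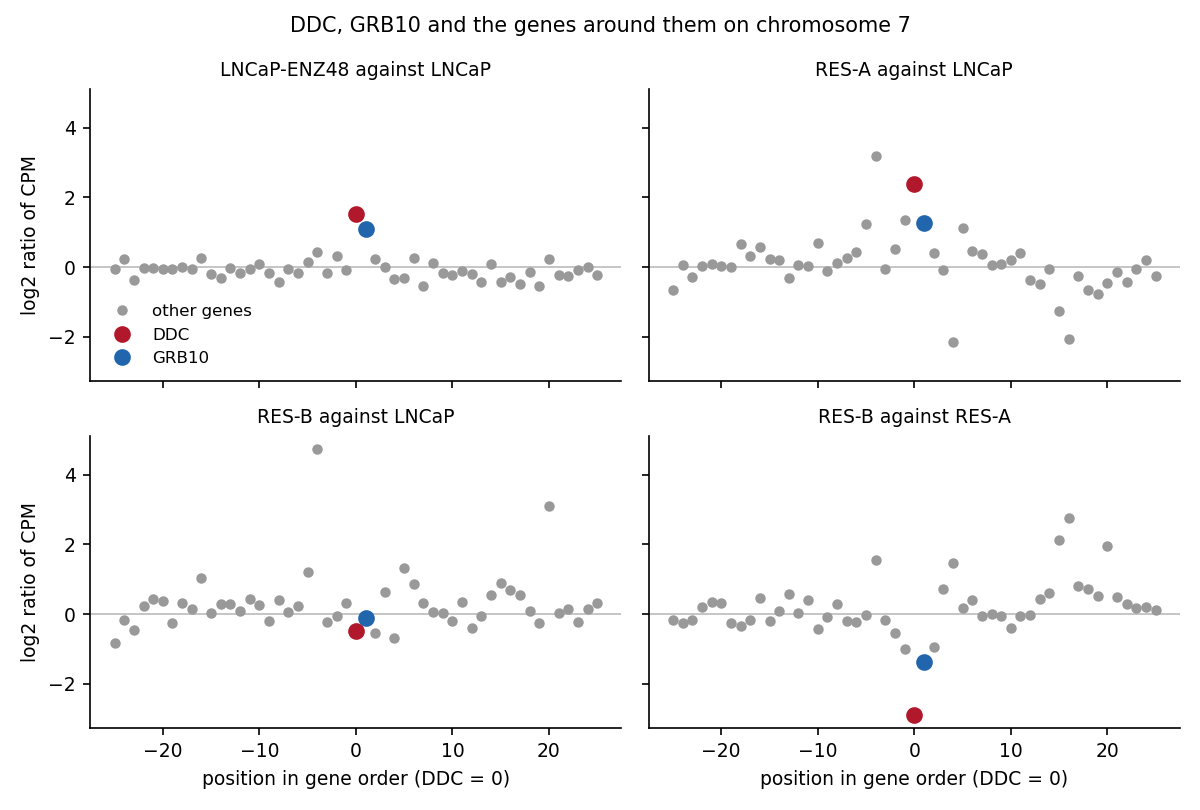
Log2 ratio of CPM for DDC, GRB10 and the 25 genes with at least 100 UMIs on each side of DDC, by position in gene order, in the 4 comparisons. In LNCaP-ENZ48 against LNCaP, DDC (1.52) and GRB10 (1.10) stand above the other genes, which lie around a median of -0.08, and in RES-B against RES-A both lie below the median of 0.10.

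The genes most like ENO2 from cell to cell differed between libraries. In LNCaP-ENZ48, where its level was highest, the leading genes were GAPDH (r = 0.15), CKB (r = 0.12) and PGK1 (r = 0.11) over 4315 cells, and GAPDH and PGK1 are both glycolytic enzymes. In LNCaP they were P4HA1 (r = 0.14), a prolyl hydroxylase of collagen, PGK1 (r = 0.12) and GAPDH (r = 0.12). The lowest correlations were with mitochondrial genes, MT-ATP6 in LNCaP-ENZ48 (r = -0.14) and MT-CO3 in LNCaP (r = -0.16). In RES-A the leading genes were the replication genes CLSPN, MCM10 and MCM4, at r = 0.06 to 0.08. Likeness in libraries other than that of the highest level was added after the data had been seen.

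The remaining genes of the secretory programme were taken from lists of 10 granin and prohormone processing genes, 16 of vesicle docking and release, 10 of neuroendocrine transcription and splicing, 13 of neuropeptides and receptors, 9 of amine metabolism and 10 surface and cytoskeletal markers. A large part was at or near 0. Under 20 UMIs in every library were 3, 5, 6, 8, 5 and 4 genes of these lists, among them the transcription factors NEUROD1, FOXA2 and SOX2, the convertase PCSK1, the enzymes TH and DBH of catecholamine synthesis, the peptide SST and the cytoskeletal gene STMN2, each with 0 UMIs throughout. The vesicular amine transporter SLC18A2 had 1 UMI in RES-A and its relative SLC18A1 had 0. TPH1, which makes the precursor from which DDC forms serotonin, had 29 UMIs in RES-A, 8 in RES-B, 4 in LNCaP and 2 in LNCaP-ENZ48. NKX2-1, a transcription factor of lung and thyroid, had 34 UMIs in RES-A, 1 in LNCaP-ENZ48, 1 in RES-B and 0 in LNCaP, which made it at least 9.92-fold higher in RES-A than 3 UMIs in LNCaP.

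In LNCaP-ENZ48, no gene of the granin, vesicle, peptide, amine or surface lists with at least 100 UMIs was 2-fold different from LNCaP. Over all genes 0.535% were at least 2-fold higher and 1.09% at least 2-fold lower. The lists are too short to set a share against these. HES6, a transcription factor of neurogenesis, was the single gene of the 6 lists past 2-fold, at 52.1 against 112 CPM, and it was short of 2-fold with DESeq2 size factors or in G1 cells alone. The list medians were 0.23, 0.22, -0.53, -0.15, -0.07 and -0.01, in the order in which the lists are named, beside -0.08 over all genes. The last pair turns positive under either other scaling, as the amine median of RES-B turns negative.

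In RES-A, 8.53% of all genes were at least 2-fold higher than in LNCaP and 6.7% at least 2-fold lower. The lists are too short to set a share against these. Of the 4 measured granin and processing genes, 2 were at least 2-fold higher, PAM (peptide amidation, 5.32 against 0.996 CPM) and the granin-like VGF (4.64 against 1.53 CPM). Of 10 measured vesicle genes, 1 was higher, RAB27B (10.3 against 4.46 CPM), and 3 were lower. The lower ones were SYT4, a synaptotagmin of dense-core granules, at 1.12 against 80.2 CPM, CPLX1 at 2.35 against 5.04 CPM and RAB27A at 2.84 against 6.43 CPM. PEG10 was 17.6 against 1.77 CPM and BEX1 2.42 against 0.677 CPM among the 3 measured surface and cytoskeletal markers. MAOA, which degrades serotonin and dopamine, was lower at 37.0 against 130 CPM. Galanin (GAL) was 178 against 122 CPM, and no measured neuropeptide or receptor gene was past 2-fold. The medians of the 6 lists were 1.04, -0.16, 0.42, -0.04, 0.17 and 1.84, beside 0.03 over all genes.

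In RES-B, 8.06% of all genes were at least 2-fold higher than in LNCaP and 5.22% at least 2-fold lower. PAM (6.71 CPM) and the calcium-binding protein SCGN were higher among 5 measured granin and processing genes. SCGN had 388 UMIs in RES-B, 27 in RES-A and 0 in LNCaP. Its RES-B level was 124-fold that of 3 UMIs in LNCaP, the floor set for a count of 0, and 1 RES-B cell held 22 of its UMIs. RAB27B (18.3 CPM) was higher, CPLX1 (1.46 CPM) and RAB27A (2.97 CPM) were lower, and SYT4 was at 87.7 CPM, beside the 80.2 CPM of LNCaP. HES6 was at 17.1 CPM, MAOA at 31.1 CPM and GAL at 69.9 CPM. PEG10 was at 0.533 CPM, below LNCaP and 33.1-fold below RES-A. BEX1 was at 4.15 CPM. The medians were 0.61, 0.19, -0.37, -0.38, 0.03 and -0.05, beside 0.10 over all genes. MAOA, CPLX1 and RAB27A were at least 2-fold lower and PAM, RAB27B and BEX1 at least 2-fold higher in both resistant lines than in LNCaP. These comparisons share the LNCaP library. In contrast, DDC, ENO2, HES6, GAL, PEG10, SCGN and SYT4 lay at least 2-fold apart between RES-A and RES-B. ONECUT2, at log2 -0.998 in RES-B against RES-A, passed 2-fold with edgeR (-1.05) and DESeq2 factors (-1.06). With both factors, but not with CPM, 1 granin and processing gene was also at least 2-fold lower in RES-B.

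Expression of REST, the repressor of neuronal genes, was 52.5 CPM in LNCaP, 48.7 after 48 h of enzalutamide, 70.1 for RES-A and 63.9 for RES-B. ONECUT2 was 15.7, 10.9, 24.3 and 12.2 CPM in the same order, and DLL3, a Notch ligand used as a surface target in neuroendocrine tumours, was 43.1, 38.6, 65.8 and 41.5 CPM. NCAM1, a neural adhesion molecule, had 4, 2, 11 and 33 UMIs.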

How the data were processed

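Cells of 4 libraries were profiled by droplet-based 3′ single-cell RNA sequencing. The deposited UMI counts per gene and barcode were made by the authors with Cell Ranger 3.0.2, as the submitters' processing notes name it, and its prebuilt GRCh38 reference. Groups were taken from the labels. Cells were kept by the study's limits: LNCaP 3000 to 7000 genes, 16000 to 50000 UMIs and under 15% mitochondrial counts, the others 1500 to 5000 genes, 5000 to 25000 UMIs and under 15% (LNCaP-ENZ48), 17% (RES-A) or 20% (RES-B). The LNCaP limit on UMIs is higher, and that library has more UMIs per barcode. Doublets were not called, and an alternative left out the 5% of cells with the most UMIs. Library pairs shared 2 to 12 barcodes.

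UMIs were summed per library. CPM have exact Poisson intervals, ratios exact conditional (Clopper-Pearson) and shares exact binomial intervals, all at 95% and for counting error only. Ratios were read at 100 or more UMIs over both libraries and called at 2-fold. Genes at 0 were set to a floor of 3 UMIs. A UMI stands for 1 molecule whatever the gene's length, so CPM are not scaled by length. Phases were called with scanpy 1.11.5 on thinned cells from 94 of 97 genes. Positions came from GENCODE 44. Other genes were named if among the 4 largest ratios of a list in a comparison, the 3 highest correlations with a member, or its neighbours. Others, such as genes at 0, were named after their values were seen. The members and lists were chosen with earlier results of these data known. Ratio and pair code was tested on simulated data. Alternatives included scaling with edgeR 4.0.16 and DESeq2 1.42.0 factors, without their tests. A gene of the transcription factor list is not reported here.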

Additional observations from a re-analysis of the deposited data

Results flagged for a closer look

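DDC and ENO2 had opposite directions in the resistant lines. The log2 ratio to LNCaP of DDC was 2.40 in RES-A and -0.48 in RES-B, a difference of -2.88 between the lines, and that of ENO2 was 0.34 and -1.15, a difference of -1.49. With 1 library per line the difference was not tested. SYP, the third member with enough UMIs, had ratios of -0.20 in RES-A, with an interval that included 0, and -0.37 in RES-B.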

How the results depend on the processing

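The number of members past 2-fold was 1, 1, 1 and 2 in the 4 comparisons under all 8 alternatives (every barcode, 1 common filter, G1 cells, without the cells of highest UMI count, both scalings, a minimum of 30 or 300 UMIs). The minimum of 30 or 300 UMIs could not alter these numbers. No further member reached 30 UMIs over a pair, DDC and ENO2 stayed above 300, and SYP was short of 2-fold. Of 72 recomputed log2 ratios of DDC, ENO2 and SYP, 68 stayed inside the original interval, 4 moved out of it and 0 turned in direction. Those that moved were DDC in LNCaP-ENZ48 (1.62 under both scalings), DDC in RES-B against RES-A (-2.77 in G1 cells) and ENO2 in RES-A (0.16 in G1 cells). Scaling by edgeR factors shifted the median over all genes from 0.10 to -0.0018 in RES-B against LNCaP. Shares of cells follow depth by construction. The share with any member was 8.47%, 15.6%, 25.3% and 4.97% at 2000 UMIs, in the order parental, treated, RES-A and RES-B, and 51.6%, 52.5%, 76.2% and 24.1% without thinning, where LNCaP and LNCaP-ENZ48 had overlapping intervals. At 2000 UMIs the ENO2 and DDC ratio was 0.392 in LNCaP and 1.21 in RES-A, with intervals that included 1. At 2000 UMIs the DDC and GRB10 ratio, added after seeing the data, was 3.05 in LNCaP and 2.78 in RES-B. In RES-A its interval included 1 at 2000 UMIs (0.910 to 1.21), in another draw (0.993 to 1.13) and in G1 cells (0.990 to 1.15). No paired analysis was possible because each group has 1 library and no test was run.

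The depth limits the rare members: 3 UMIs are 0.0493 to 0.0598 CPM. No difference has a replicate check.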
